A study of Mus musculus with 12 samples.

Results

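The genes of the 4 mouse Hox clusters were followed in RNA sequencing data from neural cells grown from embryonic stem cells. The 38 genes were taken by name from the HoxA cluster (10 genes, chr6:52162417-52260880), the HoxB cluster (10 genes, chr11:96194316-96368256), the HoxC cluster (9 genes, chr15:102921103-103036852) and the HoxD cluster (9 genes, chr2:74668310-74765142, all mm10), and they are 38 of the 45706 genes in the count table. They were chosen by membership of a cluster, not by a measured value. The study compared 4 groups of 3 libraries. Baseline cells were neural progenitor cells, described as Sox1-negative glial progenitors and given as not sorted, although the study's text also speaks of sorting progenitors with and without induction. Sox1posGP cells were progenitors sorted for Sox1, in which dCas9-VP64, a catalytically dead Cas9 fused to a transcriptional activator, had been sent to the Sox1 promoter by guide RNAs. NSC libraries hold unsorted neuroepithelial cells that had been under neural induction for 7 days. NR libraries hold neural rosettes, neuroepithelial cells that were sorted for GFP. All 4 groups descend from Sox1-GFP embryonic stem cells of the strain given as C57BL/6, which carry a GFP knock-in at 1 Sox1 allele, and the progenitors were kept in NeuroCult medium with bFGF, EGF and laminin. The dCas9-VP64 lines were grown from single cells, and the replicates were made on different days from different clonal lines. Which lines gave the Baseline and the Sox1posGP libraries is not stated in the sources used here, so clone and induction cannot be told apart. In the study only a minor part of the targeted cells turned on Sox1-GFP. Sorting of these cells and induction therefore cannot be told apart either.

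Hox genes encode homeodomain transcription factors that give cells along the head-to-tail axis of the embryo their position. Within a cluster the genes stand in the order of their paralogue number, and low numbers are expressed from the hindbrain backwards, middle numbers from the neck and upper trunk, and high numbers from the lower trunk and tail. Retinoic acid, FGF and Wnt signals and the Cdx factors switch them on in the neural tube, Polycomb complexes keep silent clusters closed, and the proteins bind DNA with cofactors of the TALE class such as Pbx and Meis. Forebrain cells usually have little Hox expression, while hindbrain and spinal cord cells keep a set of Hox genes in culture.

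Library totals lay between 3407066 and 43095688 counts, and they were lowest in Sox1posGP (3407066 to 6315574) and Baseline (4939268 to 18351483). Counts were scaled by TMM to CPM, the counts of a gene relative to the effective size of its library. Of the 38 Hox genes 28 had enough counts to be tested. Sox1 itself, the targeted gene, stood at 4.83, 6.00 and 5.43 CPM in the Baseline libraries, at 20.3, 20.9 and 21.7 CPM in Sox1posGP and at 48.6, 64.95 and 51.8 CPM in NSC. In the libraries labelled NR it stood at 4.62, 20.0 and 19.2 CPM, so that all 3 libraries labelled as GFP-sorted were below all 3 unsorted NSC libraries. Replicate 1 of NR was near the level of the Baseline libraries. This order is not the one that the sorting labels would give, and its cause was not tested. The identity of the NSC and NR libraries remains uncertain, and each direction between these groups holds for the libraries as labelled. The 5 markers of pluripotent cells, which include Dppa5a and Zfp42, summed to between 1630 and 2927 CPM in the libraries labelled NR, 63.5 to 160 CPM in NSC, 25.5 to 29.7 CPM in Sox1posGP and 12.3 to 13.2 CPM in Baseline. Of the astroglial markers, the glutamate transporter gene Slc1a3 had a mean of 2604 CPM in Baseline, 1181 CPM in Sox1posGP and 52.5 CPM in NSC, while Gfap was low in all groups, with 2.25 CPM in Baseline. Slc1a3 does not stand for the list in Sox1posGP. There 4 of the 5 astroglial markers had a positive log2 fold change against Baseline, with a median of 0.40. In bulk samples such as these, fewer cells of a type and less RNA per cell cannot be told apart.

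The summed level of the 38 genes lay between 74.3 and 83.9 RPKM in 3 of the groups, but it was made up of different genes. To compare levels between genes, the CPM of each gene was divided by its exon length in kb, which gives RPKM. The sum was 74.3 ± 4.24 (SD, n = 3) in Baseline, 83.9 ± 1.03 in Sox1posGP, 76.2 ± 1.37 in NSC and 37.2 ± 6.47 in the libraries labelled NR. HoxA and HoxD genes held 63.6% and 28.4% of the sum in Baseline, HoxB genes 7.04% and HoxC genes 0.930%. In Sox1posGP the shares of HoxA, HoxB, HoxC and HoxD were 28.7%, 27.8%, 23.0% and 20.6%. In NSC they were 44.1%, 34.9%, 18.5% and 2.51%, and in the libraries labelled NR 38.1%, 33.8%, 20.5% and 7.54%. These sums are descriptions and were not tested.

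**Figure D1:**
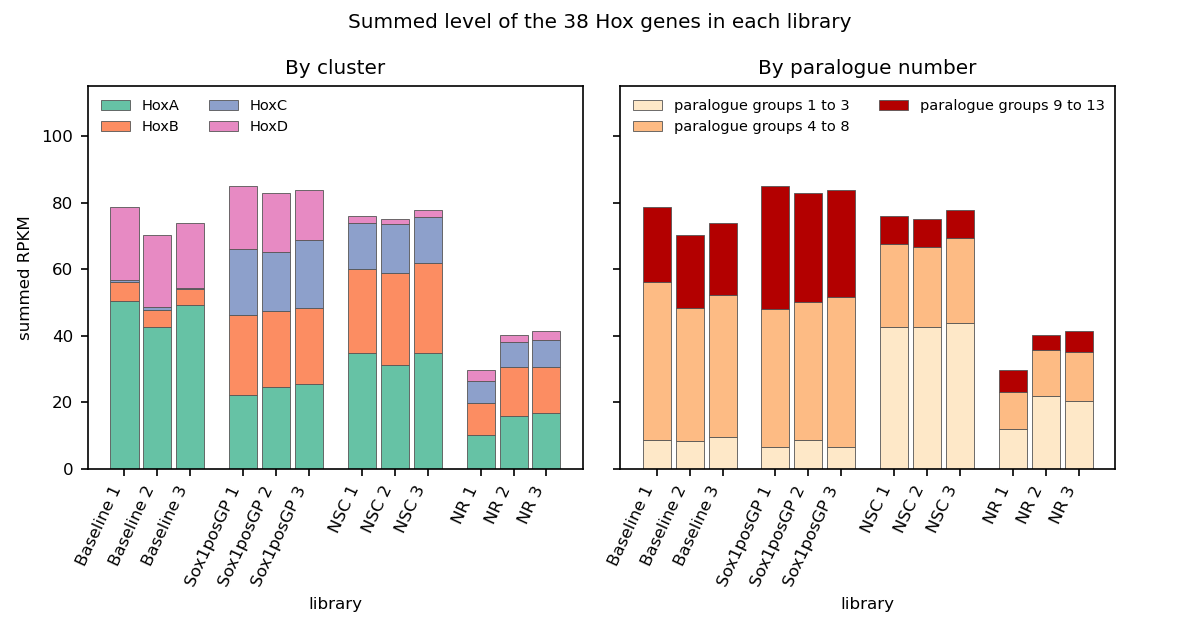
Summed level of the 38 Hox genes in each of the 12 libraries, in RPKM, stacked by cluster (left) and by paralogue number (right). The HoxC layer is 0.422 to 1.02 in the Baseline libraries and 17.7 to 20.3 in Sox1posGP, and paralogue groups 1 to 3 are 42.6 to 43.9 in NSC against 8.25 to 9.69 in Baseline.

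By paralogue number, genes of groups 1 to 3 held 11.9% of the sum in Baseline and 8.63% in Sox1posGP, but 56.5% in NSC and 47.9% in the libraries labelled NR. Genes of groups 9 to 13 held 29.7% in Baseline, 40.3% in Sox1posGP, 10.9% in NSC and 16.2% in the libraries labelled NR. The 3 highest genes in Baseline were Hoxa5 with 25.0 ± 2.11 RPKM, Hoxd8 with 11.7 ± 1.29 and Hoxa10 with 11.5 ± 0.931, the last pair being within their spread. In Sox1posGP the order was Hoxa5 (15.7 ± 1.51), Hoxc9 (15.0 ± 1.30), Hoxb7 (10.8 ± 0.321) and Hoxd13 (7.32 ± 1.15), and Hoxa5 and Hoxc9 did not differ beyond their spread. In NSC Hoxa2 led with 24.4 ± 1.89, followed by Hoxb1 (7.86 ± 1.27), Hoxb2 (5.64 ± 0.324) and Hoxc8 (4.56 ± 0.368). In the libraries labelled NR the order began with Hoxa2 (8.35 ± 3.46), Hoxb1 (5.02 ± 0.487), Hoxc8 (2.43 ± 0.260) and Hoxb2 (2.27 ± 0.832), and the neighbours Hoxa2 and Hoxb1, as well as Hoxc8 and Hoxb2, lay within their spread.

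**Figure D2:**
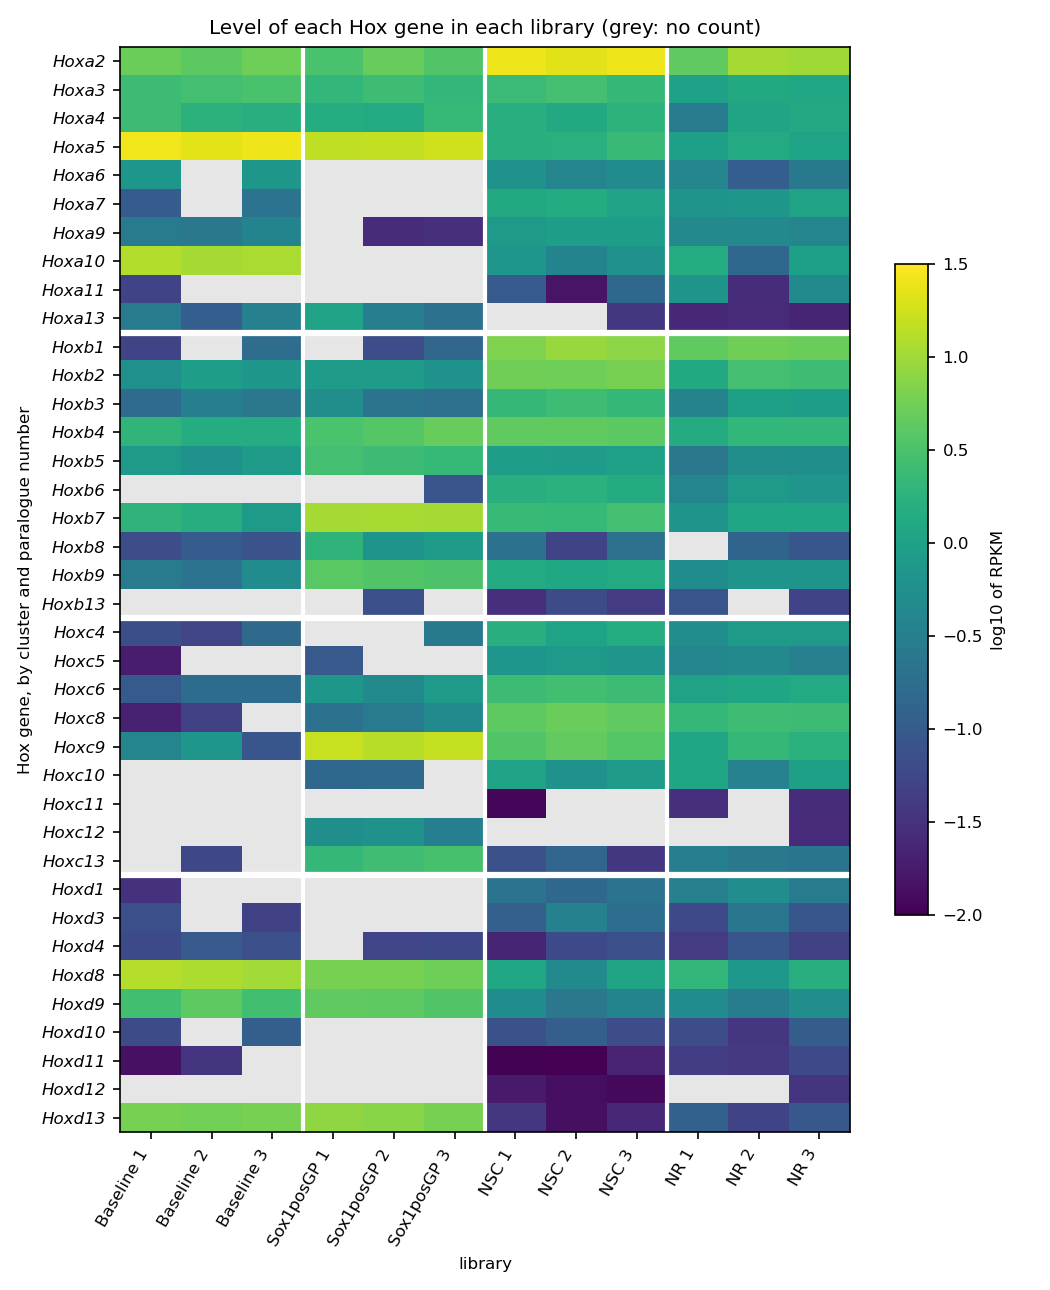
Level of each of the 38 Hox genes (rows, by cluster and paralogue number) in each of the 12 libraries (columns), as the log10 of RPKM, with grey where no read was counted. Hoxa10 is bright in the 3 Baseline libraries (10.7 to 12.5 RPKM) and grey in the 3 Sox1posGP libraries, and HoxC rows are dark or grey in Baseline.

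The comparison of Sox1posGP with Baseline sets progenitors sorted after activation of the Sox1 promoter against progenitors given as not sorted. Genes said to fall or rise were lower or higher in Sox1posGP, since induction, sorting and clone cannot be told apart. Hoxa9 and Hoxa10, neighbours in the HoxA cluster, fell, while Hoxb7 to Hoxb9 and 4 HoxC genes rose. Hoxa7, beside Hoxa9, was called lower on only 8 counts in Baseline and 0 in Sox1posGP. Genes were tested by the quasi-likelihood method of edgeR, with p-values adjusted after Benjamini and Hochberg, and a gene was called where it differed by more than 4-fold with a p below 0.05 and an adjusted p below 0.1. Of the 28 tested Hox genes 7 were called higher in Sox1posGP and 3 were called lower, against 3.87% and 1.92% of all 17003 genes tested. The called genes were 3 of 8 tested HoxA genes, 3 of 9 tested HoxB genes, and Hoxc6, Hoxc8, Hoxc9 and Hoxc13 among 7 tested HoxC genes, while 0 of 4 tested HoxD genes were called. The median log2 fold change of the 28 genes was 0.38, with -0.50 in HoxA, 1.77 in HoxB, 3.64 in HoxC and -0.36 in HoxD, and it was 0.00 over all genes. Genes were kept for testing over all 4 groups, so these medians include Hoxb6, Hoxc5, Hoxc10 and Hoxd3, with few counts in both groups. The HoxC median is the value of Hoxc8, with 2 counts in Baseline and 15 in Sox1posGP. A fit of only these 2 groups tested 16 Hox genes.

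Hoxa10, whose product is known for its part in lower trunk, limb and reproductive tract patterning and in leukaemia, was the Hox gene that fell furthest. It had 686, 251 and 176 counts in the Baseline libraries (40.9, 35.0 and 36.7 CPM) and 0 counts in each Sox1posGP library, which together allow a level of up to 0.19 CPM at a floor of 3 counts over the group. The groups did not overlap, and by the counts summed over each group and scaled for depth (1113 in Baseline, against the floor of 3) Hoxa10 was at least 204-fold lower in Sox1posGP (edgeR adjusted p = 3.55e-05). In NSC it stood at 2.26, 1.24 and 2.07 CPM and in the libraries labelled NR at 4.74, 0.484 and 3.23 CPM, below every Baseline library in each case. Intervals and floors cover counting error only.

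Hoxa9, the neighbour of Hoxa10 and, like it, a gene of trunk patterning and of leukaemia, had 26, 10 and 10 counts in Baseline (1.55, 1.40 and 2.09 CPM) and 0, 1 and 1 counts in Sox1posGP. The groups did not overlap, and the ratio of the summed counts, scaled for depth, was 12.7-fold, with an exact 95% interval from 3.31 to 108 (edgeR adjusted p = 1.00e-04). In NSC Hoxa9 was at 4.27, 5.01 and 5.09 CPM, above every Baseline library. Hoxa7, a gene of upper trunk patterning, had 5, 0 and 3 counts in Baseline and 0 in all Sox1posGP libraries, so that the groups overlapped at 0 and the fold change was at least 1.47 (edgeR adjusted p = 0.061). Its call rests on these 8 counts: it was lost without Baseline replicate 1 or 3 and without any of the 3 Sox1posGP libraries, while Hoxa9 had too few counts to enter a fit of only these 2 groups. Hoxa5, which acts in neck and upper trunk, had the highest mean RPKM of the Hox genes in both groups. In Sox1posGP its lead over Hoxc9 was within their spread, and Hoxa5 passed the adjusted p without reaching 4-fold. It was at 49.5, 42.4 and 49.0 CPM in Baseline and at 27.2, 28.7 and 32.7 CPM in Sox1posGP, with no overlap and a log2 change of -0.67 ± 0.16 (SE, edgeR adjusted p = 0.0050). Hoxa2, Hoxa3 and Hoxa4, which lie on the other side of Hoxa5, had log2 fold changes of -0.33, -0.32 and -0.25, and Hoxa13, at the far end of the cluster, of 0.95, and none of these 4 passed the adjusted p.

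Sequence before the start of these genes is shown for Hoxa10 (both starts listed by RefSeq) and Hoxa9, which fell, for Hoxa5, which fell less and led the HoxA genes of both groups, and for Hoxb8, which rose. Each run is the 250 bases before a transcription start on the strand of the gene, read from RefSeq (GRCm38.p6, the build of mm10), and capitals mark letters of 4 motifs searched on both strands: the SOX core ACAAT, the HOX-PBX site TGATTNAT, the retinoic acid half-site AGGTCA and the TATA box TATAAA. The TATA boxes shown lie on the opposite strand, so their capitals are the reverse complement, and none of the 4 motifs lies inside another. The Hoxa10 windows are chr6:52240855-52241104 and chr6:52234940-52235189, the Hoxa9 window is chr6:52227371-52227620, the Hoxa5 window is chr6:52204588-52204837 (all on the minus strand), and the Hoxb8 window is chr11:96281655-96281904 (plus strand).
Hoxa10, upstream start: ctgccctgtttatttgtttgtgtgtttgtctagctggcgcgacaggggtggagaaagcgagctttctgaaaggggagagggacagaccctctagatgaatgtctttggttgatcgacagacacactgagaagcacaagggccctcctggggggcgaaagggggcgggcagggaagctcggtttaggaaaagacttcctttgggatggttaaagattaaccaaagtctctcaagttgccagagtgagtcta
Hoxa10, downstream start: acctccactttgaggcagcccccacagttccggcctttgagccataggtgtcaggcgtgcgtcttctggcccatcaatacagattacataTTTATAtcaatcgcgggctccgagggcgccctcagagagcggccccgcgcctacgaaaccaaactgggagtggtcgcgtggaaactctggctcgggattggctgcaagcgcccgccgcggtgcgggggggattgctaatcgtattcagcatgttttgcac
Hoxa9: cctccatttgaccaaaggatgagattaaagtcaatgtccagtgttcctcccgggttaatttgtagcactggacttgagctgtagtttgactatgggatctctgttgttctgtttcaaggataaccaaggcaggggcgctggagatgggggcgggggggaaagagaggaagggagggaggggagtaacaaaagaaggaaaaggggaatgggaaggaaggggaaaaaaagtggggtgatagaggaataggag
Hoxa5: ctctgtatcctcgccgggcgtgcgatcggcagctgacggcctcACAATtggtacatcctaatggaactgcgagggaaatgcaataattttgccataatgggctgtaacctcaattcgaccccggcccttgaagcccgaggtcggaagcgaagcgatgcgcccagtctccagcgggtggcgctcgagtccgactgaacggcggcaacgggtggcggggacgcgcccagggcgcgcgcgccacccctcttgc
Hoxb8: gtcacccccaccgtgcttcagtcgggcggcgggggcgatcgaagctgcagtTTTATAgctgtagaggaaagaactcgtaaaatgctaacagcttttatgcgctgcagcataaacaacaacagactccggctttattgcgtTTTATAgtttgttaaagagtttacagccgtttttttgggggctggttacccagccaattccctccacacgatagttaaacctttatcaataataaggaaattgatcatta

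The upstream Hoxa10 window and the Hoxa9 window hold none of the 4 motifs, the downstream Hoxa10 window holds 1 TATA box, the Hoxa5 window 1 SOX core and the Hoxb8 window 2 TATA boxes. Windows were found for 22 of the 38 genes, 24 in all. The SOX core occurs in 5 of the 24 windows and in 27.7% of 32851 mouse windows of the same length, the HOX-PBX site in 2 and in 2.8%, the retinoic acid half-site in 6 (Hoxb4, Hoxc4, Hoxd3, Hoxd4, Hoxd8 and Hoxd10) and in 14%, and the TATA box in 4 and in 12.4%. The windows hold between 2 and 35 CpG dinucleotides, with a median of 12.5 against 6 in all mouse windows, and 3 in the Hoxa9 window against 28 in that of Hoxa5. A match describes letters and is no evidence of binding.

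In the HoxB cluster Hoxb4, Hoxb5 and Hoxb7 to Hoxb9 rose. Hoxb1, Hoxb2 and Hoxb3, hindbrain genes, had log2 fold changes of 0.41, 0.13 and 0.33 that did not pass the test. Hoxb4 (log2 fold change 1.26, standard error 0.23) and Hoxb5 (1.77, 0.31) passed the adjusted p at less than 4-fold, with adjusted p = 0.00056 and 0.00044 in edgeR. Hoxb7, Hoxb8 and Hoxb9, genes of the trunk, were called. Hoxb7 was at 2.92, 2.37 and 1.25 CPM in Baseline and at 16.5, 17.3 and 16.3 CPM in Sox1posGP, a log2 change of 2.84 ± 0.29 (SE, edgeR adjusted p = 4.94e-06). The Sox1posGP libraries were close to each other and well above Baseline, NSC (3.38 to 4.42 CPM) and the libraries labelled NR (0.985 to 1.83 CPM). Hoxb9 rose from 0.716, 0.558 and 1.25 CPM to 10.4, 9.26 and 8.51 CPM, a log2 change of 3.56 ± 0.29 (SE, edgeR adjusted p = 6.24e-07). Hoxb8 had only 3, 2 and 1 counts in Baseline and 17, 11 and 13 in Sox1posGP, with no overlap and a log2 change of 3.67 ± 0.80 (SE, edgeR adjusted p = 0.0024). When every library was thinned to 3407066 counts, Hoxb8 had too few counts to be tested. Hoxb6 had 0 counts in Baseline and 1 in Sox1posGP, so it was not detectable in either group at this depth, although it lies between Hoxb5 and Hoxb7.

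The HoxC cluster was close to silent in Baseline, with 0.682 ± 0.309 RPKM summed over 9 genes, and stood at 19.3 ± 1.39 in Sox1posGP. Hoxc9, a gene of the thoracic trunk that sets motor neuron columns in the spinal cord, carried most of it. It had 16, 12 and 1 counts in Baseline (0.955, 1.67 and 0.209 CPM) and 134, 209 and 225 in Sox1posGP (38.8, 32.8 and 37.5 CPM), a log2 change of 5.16 ± 0.34 (SE, edgeR adjusted p = 9.97e-08), with no overlap. Hoxc13, known for its part in hair and nails, had 0, 1 and 0 counts in Baseline and 18, 42 and 45 in Sox1posGP (5.21, 6.59 and 7.51 CPM), a ratio of 191 with an exact 95% interval from 33.5 to 7600 (edgeR adjusted p = 2.70e-06). Both genes were also above every NSC library, which reached 11.1 CPM for Hoxc9 and 0.345 CPM for Hoxc13, a difference that was not tested.

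Hoxc8, a gene of the lower neck and upper trunk, had 1, 1 and 0 counts in Baseline and 2, 5 and 8 in Sox1posGP, a ratio of 13.62 with an exact interval from 3.17 to 123 (edgeR adjusted p = 0.00031). Hoxc6, its neighbour, had 4, 3 and 2 counts in Baseline and 6, 7 and 11 in Sox1posGP, a log2 change of 2.23 ± 0.40 (SE, edgeR adjusted p = 0.00061) whose call was lost without Baseline replicate 1. Both genes were called on few reads, and both were too low to enter a fit of only these 2 groups, in which 16 Hox genes were tested. Hoxc10 had 0 counts in Baseline and 1, 2 and 0 in Sox1posGP, at or under the floor in both. Hoxc4 and Hoxc5 had at most 4 counts in any library of either group and log2 fold changes of 0.23 and 0.79, which did not pass the test. Hoxc11, which had 0 counts in all 6 libraries, lies with Hoxc10 between Hoxc9 and Hoxc13.

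In the HoxD cluster 3 genes made up nearly the whole sum in both groups, and 1 of them changed at less than 4-fold. Hoxd8, a gene of the trunk, was at 35.7, 32.1 and 28.6 CPM in Baseline and at 16.5, 16.5 and 14.8 CPM in Sox1posGP, with no overlap and a log2 change of -1.02 ± 0.34 (SE, edgeR adjusted p = 0.028). Hoxd9 (5.85, 9.07 and 5.84 CPM against 9.55, 9.11 and 7.67 CPM) had a log2 fold change of 0.34 with an approximate 95% interval from -0.24 to 0.92. Hoxd13, a gene of the tail, digits and genital tubercle, was at 14.9, 14.1 and 15.0 CPM in Baseline and at 20.8, 18.5 and 15.2 CPM in Sox1posGP, a log2 fold change of 0.30 with an interval from -0.10 to 0.70. Neither Hoxd9 nor Hoxd13 passed the test. Hoxd3 had 5, 0 and 1 counts against 0 in all Sox1posGP libraries, and 62.3% of its exon length overlaps other genes on the same strand, Hoxd4 among them, so that its reads and theirs may not be told apart.

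**Figure D3:**
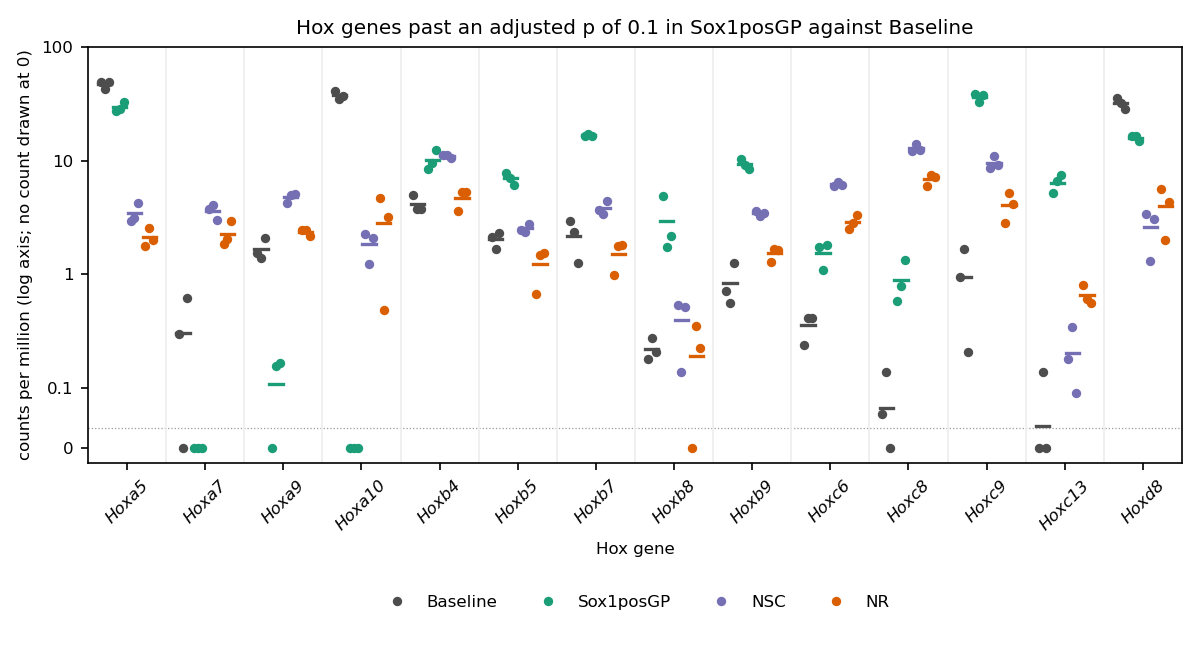
CPM (log axis, with libraries without a count drawn at 0) of the 14 Hox genes past an adjusted p of 0.1 in Sox1posGP against Baseline, 1 point for each library and a bar at the mean of each group of 3. Of the 28 tested Hox genes 9 were higher and 5 lower at this threshold, against 21.6% and 22.7% of all genes tested. The Sox1posGP points of Hoxb7, Hoxb9, Hoxc9 and Hoxc13 lie above all points of the other groups, and those of Hoxa7 and Hoxa10 lie at 0.

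Genes beside the Hox genes were counted as well. Of 11 tested genes inside the 4 clusters that are no Hox gene of the list, 1 was called higher and 0 were called lower in Sox1posGP. Of all genes tested, 3.87% were called higher and 1.92% lower. The gene called inside a cluster was 5730596B20Rik, of the HoxA region and named here after its value was seen. It had 3, 4 and 3 counts in Baseline and 6, 12 and 9 in Sox1posGP (log2 change 2.18 ± 0.53 SE, edgeR adjusted p = 0.0053). Of 52 tested genes within 500 kb of a cluster 1 was called, likewise higher, and the median log2 fold change of the 52 was 0.00. Without the fold threshold 9 of the 52 were higher and 12 lower, against 21.6% and 22.7% of all genes tested. Of the 9 beside HoxA 0 were higher and 4 lower, with a median of -0.38. Hotairm1 and Halr1, noncoding genes beyond the Hoxa2 end of HoxA, had log2 fold changes of -0.39 (edgeR adjusted p = 0.098) and -0.67 (edgeR adjusted p = 0.013). Summed marker levels differed between the groups. The sum of 5 astroglial markers, made up mostly of Slc1a3, was 2488 to 2792 CPM in Baseline and 1173 to 1227 CPM in Sox1posGP. Of these 5 markers 4 had a positive log2 fold change, with a median of 0.40. Without the fold threshold 2 of the 5 were higher and 1 lower. The 6 neural progenitor markers summed to 1226 to 1267 CPM in Baseline and 753 to 823 CPM in Sox1posGP, with none at 0. Without the fold threshold 1 of these 6 was higher and 3 lower. Their part in the change of the Hox genes was not tested.

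NSC libraries were compared with Baseline as an early neural stage. Here Hoxa2, Hoxb1, Hoxb2, Hoxb3 and all 7 tested HoxC genes were higher, and Hoxa5, Hoxa10, Hoxa13 and 3 HoxD genes were lower. Of the 28 tested genes 15 were called higher and 6 were called lower, against 19.1% and 5.89% of all genes tested. The 3 lower HoxD genes were Hoxd8, Hoxd9 and Hoxd13. The median log2 fold change was 2.11, against 0.20 over all genes tested, and it was 4.25 in HoxC, 2.13 in HoxB, -0.25 in HoxA and -3.34 in HoxD. Genes were filtered over all 4 groups, so a gene near 0 in Baseline could be tested because it was higher in another group. The count of 7 HoxC genes and the HoxC median are partly set by this filter. In paralogue groups 1 to 3, 5 of 6 tested genes were called higher and 0 lower. The libraries of NSC are deeper than those of Baseline, and when all were thinned to the smallest total, 8 genes instead of 15 were called higher and 21 could be tested.

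Hoxa2, the gene that sets the second branchial arch and reaches furthest forward in the hindbrain, was the highest Hox gene of NSC. It stood at 9.25, 7.39 and 9.60 CPM in Baseline and at 45.5, 39.5 and 45.1 CPM in NSC, with no overlap and a log2 change of 2.31 ± 0.27 (SE, edgeR adjusted p = 3.77e-06). Hoxb1, a gene of the fourth segment of the hindbrain and a direct target of retinoic acid, had 2, 0 and 2 counts in Baseline and 683, 613 and 600 in NSC (15.3, 21.2 and 18.3 CPM), a log2 change of 6.96 ± 0.41 (SE, edgeR adjusted p = 3.88e-09). Hoxb2, its neighbour, rose from 1.97, 3.07 and 2.504 CPM to 19.5, 18.6 and 20.9 CPM, a log2 change of 3.01 ± 0.29 (SE, edgeR adjusted p = 4.14e-07). Hoxb3 was called as well (log2 fold change 3.29). Antisense genes lie opposite 52.9% of the exon length of Hoxb3 and 27.3% of that of Hoxb2, among them Hoxb3os, which was itself called higher (log2 fold change 2.59), and the library kit does not mark strand.

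Among HoxC genes, Hoxc8 had 2 counts over the 3 Baseline libraries and 546, 409 and 408 in NSC (12.2, 14.1 and 12.4 CPM), a ratio of 184 with an exact 95% interval from 50.8 to 1519 (edgeR adjusted p = 1.19e-09). Hoxc9 was at 8.57, 11.1 and 9.17 CPM, a log2 change of 3.24 ± 0.34 (SE, edgeR adjusted p = 1.19e-06), with no overlap with Baseline. Hoxc10 and Hoxb6, which had no count in Baseline, were at least 15.7-fold and at least 29.7-fold higher in NSC. For Hoxc13, with 21 counts in NSC and 1 in Baseline, the ranges overlapped and the exact interval of the ratio ran from 0.911 to 234, and the call was lost under DESeq2, with the replicate block and without NSC replicate 1 or 2 and Baseline replicate 1 or 3. The calls of Hoxd3 and Hoxb9 were also lost when some replicates were left out, Hoxd3 without NSC replicate 2 or Baseline replicate 2 (and with the replicate block) and Hoxb9 without Baseline replicate 1 or 2.

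The falls in NSC were as large. Hoxa5 went from 49.5, 42.4 and 49.0 CPM to 2.93, 3.14 and 4.27 CPM, a log2 change of -3.77 ± 0.18 (SE, edgeR adjusted p = 3.98e-10). Hoxd13 had 250, 101 and 72 counts in Baseline but 4, 1 and 2 in the far deeper NSC libraries (0.0895, 0.0345 and 0.0610 CPM), a log2 change of -7.68 ± 0.31 (SE, edgeR adjusted p = 1.17e-10). Neither gene overlapped between the groups. Hoxa10 (-4.32 ± 0.54 SE), Hoxd8 (-3.61 ± 0.35 SE) and Hoxd9 (-3.07 ± 0.32 SE) fell as well, with adjusted p = 1.72e-05, 5.44e-07 and 9.42e-07 in edgeR, and Hoxd8 stood at 3.40, 1.31 and 3.08 CPM and Hoxd9 at 1.07, 0.518 and 0.823 CPM. Hoxa13 had 17 counts in Baseline and 3 in NSC, a ratio of 21.0 with an exact interval from 6.08 to 112. All 3 of these NSC counts were in replicate 3, and Hoxa13 had too few counts to be tested in the fit of only these 2 groups or after thinning. Hoxa3, Hoxa4, Hoxb5 and Hoxb8 did not pass the test, with log2 fold changes of -0.18, -0.33, 0.33 and 0.93.

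**Figure D4:**
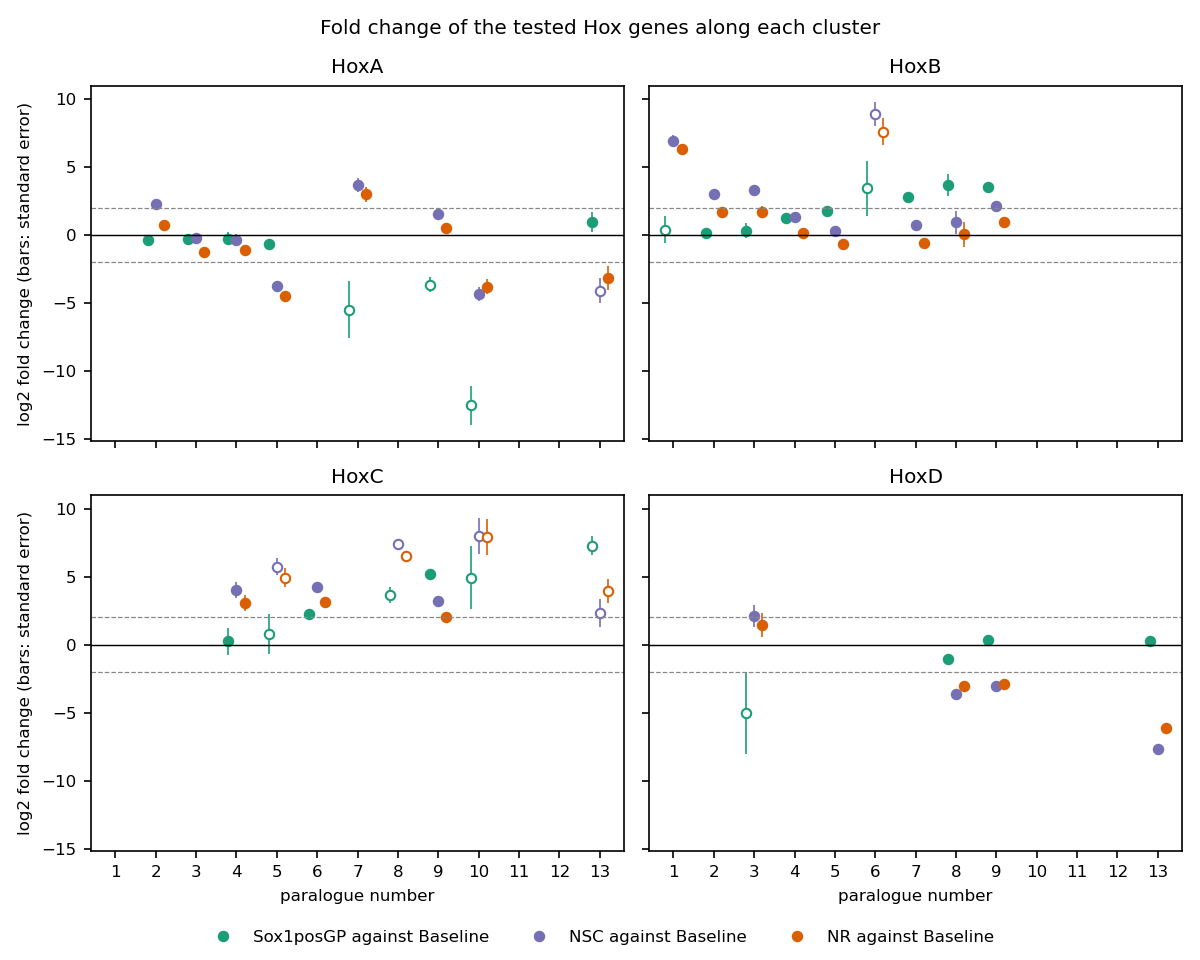
Log2 fold change (bars are standard errors) of the 28 tested Hox genes by paralogue number in each cluster, for Sox1posGP, NSC and NR against the same 3 Baseline libraries. Dashed lines mark 4-fold and open circles mark genes with 3 counts or fewer in a group, whose fitted value depends on the prior count and is no bound. HoxB values of Sox1posGP go from 0.13 at Hoxb2 to 3.56 at Hoxb9, while in NSC Hoxb1 stands at 6.96 and Hoxb5 at 0.33, and Hoxa5, Hoxa10, Hoxd8, Hoxd9 and Hoxd13 are below -2 in both NSC and NR.

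The libraries labelled NR were compared with the same Baseline libraries, so the values are set beside those of NSC and no overlap is drawn from them. Of the 28 tested genes 10 were called higher and 6 were called lower in NR, against 22% and 6.02% of all genes tested, with a median log2 fold change of 0.88 against 0.19 over all genes. All 7 tested HoxC genes were among the 10, with Hoxa7, Hoxb1 and Hoxb6. This count of HoxC genes is likewise partly set by the filter over all 4 groups. The 6 lower genes were Hoxa5, Hoxa10, Hoxa13, Hoxd8, Hoxd9 and Hoxd13. Without NR replicate 1, in which Sox1 was lowest, 11 were called higher and 6 lower, and when all libraries were thinned to the smallest total 6 were called higher. The call of Hoxc9 was lost without NR replicate 2 or 3, without Baseline replicate 1 or 3, with the replicate block, in the fit of only these 2 groups and with a prior count of 2.

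Hoxb1 was at 10.4, 12.6 and 11.9 CPM in the libraries labelled NR, a log2 change of 6.31 ± 0.42 (SE, edgeR adjusted p = 1.19e-08), with no overlap with Baseline. Hoxc8 was at 6.03, 7.42 and 7.17 CPM, a ratio to Baseline of 101 with an exact 95% interval from 27.9 to 837, and Hoxc9 at 2.83, 5.16 and 4.19 CPM (log2 change 2.03 ± 0.35 SE, edgeR adjusted p = 0.00014). Both were above every Baseline library. Hoxc6 was at 2.52, 2.84 and 3.34 CPM (log2 change 3.16 ± 0.33 SE, edgeR adjusted p = 1.12e-06), and Hoxc13 had 13, 19 and 20 counts against 1 in Baseline, a ratio of 18.0 with an interval from 3.10 to 726. Hoxa5 fell to 1.79, 2.58 and 2.02 CPM, a log2 change of -4.44 ± 0.19 (SE, edgeR adjusted p = 1.34e-10), and Hoxd13 to 0.308, 0.129 and 0.225 CPM, a log2 change of -6.10 ± 0.28 (SE, edgeR adjusted p = 3.43e-10). Hoxa10 (-3.80 ± 0.54 SE), Hoxd8 (-3.04 ± 0.35 SE) and Hoxd9 (-2.88 ± 0.32 SE) were lower as well, with adjusted p = 4.22e-05, 2.37e-06 and 1.80e-06 in edgeR. Hoxa10 and Hoxd8 varied within the group, at 0.484 to 4.74 CPM and 2.00 to 5.67 CPM, yet stayed below all Baseline libraries.

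Set directly against NSC, the libraries labelled NR had lower levels of most Hox genes, by less than 4-fold. No Hox gene was called in either direction (0 and 0), by edgeR or by DESeq2, against 7.34% of all genes called higher and 0.118% called lower, while 19 of the 28 genes had an unadjusted p under 0.05 in edgeR, 17 of them lower. Without the fold threshold 17 genes were lower and 2 higher at an adjusted p under 0.1, against 26.6% and 30% of all genes, and the median log2 fold change was -0.89 against 0.01. The 17 lower genes included 8 of 9 tested HoxB genes, 5 of 7 HoxC genes, 4 of 8 HoxA genes and 0 of 4 HoxD genes. Hoxa2 was at 7.76, 18.8 and 17.9 CPM against 39.5 to 45.5 CPM in NSC, with no overlap (log2 change -1.53 ± 0.25 SE, edgeR adjusted p = 0.00022). The 2 higher genes were Hoxc13 (log2 change 1.66 ± 0.45 SE, edgeR adjusted p = 0.0078) and Hoxd13 (log2 change 1.58 ± 0.45 SE, edgeR adjusted p = 0.018), both with at most 20 counts in any library of the 2 groups. When all libraries were thinned to the smallest total neither passed, and the log2 fold changes were 0.96 and 0.04. Without NR replicate 1 the numbers were 16 lower and 3 higher. The higher count was 4 without NSC replicate 3 and 5 without NR replicate 2.

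Markers of several cell types moved with this difference. In the libraries labelled NR 5 of 5 markers of pluripotent cells were called higher than in NSC, with log2 fold changes of 4.49 for Zfp42, 4.37 for Dppa5a, 4.14 for Nanog, 3.78 for Klf2 and 3.58 for Pou5f1, and none was at 0 in any library of either group. All 6 neural progenitor markers were lower at an adjusted p under 0.1, and their sum was 342 to 676 CPM against 1131 to 1666 CPM in NSC. The mesoderm markers summed to 33.6 to 105.8 CPM in NR and 9.28 to 11.4 CPM in NSC, with T called higher, and the endoderm markers to 68.8 to 92.8 CPM and 30.3 to 38.7 CPM, with Gata4 and Sox17 called higher. The sums of the 38 Hox genes were 29.7 to 41.5 RPKM against 75.0 to 77.7 in NSC. The part of these markers in the lower Hox levels was not tested.

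The 10 genes with too few counts to test were Hoxa6, Hoxa11, Hoxb13, Hoxc11, Hoxc12, Hoxd1, Hoxd4, Hoxd10, Hoxd11 and Hoxd12, none of which exceeded 37 counts in a library. Hoxa6, between Hoxa5 and Hoxa7, had 13 counts in Baseline and 0 in Sox1posGP (at least 2.39-fold lower), and Hoxc12, beside Hoxc13, had 0 in Baseline and 2, 4 and 2 in Sox1posGP (at least 4.84-fold higher). Hoxd1, the HoxD gene of the lowest number, had 1 count over the 3 Baseline libraries, 0 in Sox1posGP, 18, 8 and 13 in NSC and 10, 30 and 19 in the libraries labelled NR. Its ratio to Baseline was 10.5 in NSC, with an exact 95% interval from 1.78 to 426, and 20.5 in NR (3.53 to 822). Hoxa11 had 63 counts in the libraries labelled NR and 2 in Baseline, a ratio of 10.9 (2.90 to 92.2). Hoxc11, Hoxd10, Hoxd11 and Hoxd12 had 0 counts in Sox1posGP, where 3 counts over the group correspond to 0.19 CPM, and were not detectable at this depth.

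Genes that work with or upstream of Hox proteins were counted from lists. Against Baseline, the shares of all genes called higher and lower were 3.87% and 1.92% in Sox1posGP, 19.1% and 5.89% in NSC, and 22% and 6.02% in NR. Of 9 TALE cofactor genes 0 were called in Sox1posGP against Baseline, and at an adjusted p under 0.1 without a fold threshold 7 were lower and 0 higher, against 22.7% and 21.6% of all genes tested. Among the 7 was Meis2 (38.4 ± 1.72 CPM in Baseline and 13.9 ± 2.16 CPM in Sox1posGP, log2 fold change -1.44, edgeR adjusted p = 0.00014). In NSC 5 of the 9 were called higher and 0 lower, including Pbx3 (2.22), Meis2 (2.18) and Meis3 (2.27, all log2 fold changes), and in the libraries labelled NR 2 and 0.

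Of 17 tested genes of the retinoic acid pathway 0 were called in Sox1posGP. Without the fold threshold 4 were higher and 2 lower, against 21.6% and 22.7% of all genes tested. In NSC 11 were called higher and 0 lower, and in NR 12 higher and 1 lower (Aldh1a1). Cyp26a1, which degrades retinoic acid and is itself induced by it, had a mean of 0.156 CPM in Baseline, 0.160 CPM in Sox1posGP, 19.6 ± 3.94 CPM in NSC and 56.4 ± 8.45 CPM in the libraries labelled NR. Rarb, a retinoic acid receptor gene, was at 0.869 ± 0.232, 1.48 ± 0.888, 16.3 ± 1.85 and 13.1 ± 3.67 CPM in the same order. Both were called higher in NSC and in NR.

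Among 9 tested upstream activators, Cdx2 was called higher in Sox1posGP on 0 counts in Baseline and at most 2 in a Sox1posGP library, where the 2 groups overlapped at 0. In NSC 5 genes of the list were called higher and 0 lower, and in NR 6 and 0. Cdx1, a direct activator of Hox genes in the tail bud, had 0 counts in Baseline and Sox1posGP, 0.306 ± 0.116 CPM in NSC and 3.93 ± 1.03 CPM in the libraries labelled NR. Of 18 chromatin regulators of Hox clusters 0 were called in Sox1posGP. Without the fold threshold 3 were higher and 5 lower there, against 21.6% and 22.7% of all genes tested. In the other comparisons with Baseline 1 was called higher in NSC (Cbx2) and 3 were called higher in NR. Of 11 tested forebrain and midbrain genes, which mark regions in front of the Hox domain, 1 was called higher in Sox1posGP (Pax2, on at most 6 counts in a library), 7 higher and 2 lower in NSC, and 6 higher and 3 lower in NR, with Otx2 higher in both (log2 fold changes 5.53 and 7.64). Of 8 tested noncoding genes and neighbours inside or beside the clusters 0 were called in Sox1posGP, 3 higher and 4 lower in NSC, and 2 higher and 3 lower in NR, among them Hotairm1 (log2 fold change -3.28 in NSC and -3.19 in NR) and Hoxb5os (5.64 and 4.38). Of the other marker lists, mesoderm markers had 1 lower of 3 tested in Sox1posGP (Meox1), endoderm and neural crest markers 0 called of 4 and of 3, neuronal markers 1 higher of 6 (Dcx), and astroglial markers 1 higher of 5 (Aqp4, on at most 4 counts in a library).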

How the data were processed

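RNA was sequenced from 12 cultures in 4 groups of 3, grouped by the GEO labels. Whole-number counts per gene were deposited by the authors, whose libraries were made with PicoPure and SMART-Seq v4, a kit that does not mark strand. The submitters' processing notes name STAR 2.6, RSEM 1.1.14 and the build mm10 without a role, so the counts may be rounded estimates, and the annotation is not given in the sources used here. Symbols, coordinates and exon lengths came from GENCODE vM21 (GRCm38), in which 563 of 45706 genes had no symbol.

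The 38 genes and all lists were chosen with earlier results of these data known. One further gene of the HoxA cluster is not reported here. Counts were scaled by TMM, filtered with filterByExpr and fitted over all 12 libraries with edgeR 4.0.16 (R 4.3.3), and p-values were adjusted over 17003 genes. Standard errors of log2 fold changes were derived by dividing the absolute log2 fold change by the square root of the F statistic. Intervals of log2 fold changes are normal intervals around them. They leave out the finite degrees of freedom of the test and are therefore somewhat too narrow. The thresholds follow the study, which names a Wald test without its software, and the Wald test of DESeq2 1.42.0 was an alternative. Alternatives also covered scaling, filters, fold thresholds, thinning, the replicate block and each left-out replicate. Named genes were the members called in Sox1posGP against Baseline, up to 10 called members in each other comparison by highest mean RPKM, and up to 3 called genes of each other list; other genes with values were chosen after their values were seen. On simulated data (16155 genes, 200 changed, log2 change 3, Sox1posGP against Baseline) the test called 99% of rises and 92% of falls, with 4 false calls. In the simulation each gene had the same starting level in all groups, and changed genes were not drawn from the lowest levels. The rates therefore do not cover genes with only a few counts in the groups compared. Library totals ran from 3407066 to 43095688 counts, so 3 counts over a group correspond to 0.19 CPM in Sox1posGP and 0.0282 CPM in NSC. Replicates differed by more than counting noise (chi-square per degree of freedom 1.54 to 49.0). Same-numbered NR and NSC libraries had correlations of 0.229, 0.490 and 0.296 in their deviations from the group means. Unlike-numbered libraries ranged from -0.410 to 0.301, the highest being NR replicate 3 with NSC replicate 1. Pairing by number was therefore not established, and the main fit had no replicate block.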

Additional observations from a re-analysis of the deposited data

How the results depend on the processing

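Many Hox genes had few counts in Baseline and Sox1posGP, which limits their values. Of 164 counts of Hox genes under alternatives 140 stayed within 1.5 times, and of the log2 fold changes of Hox genes past an adjusted p of 0.1, recomputed wherever the gene could be tested, 1081 still passed their threshold in the same direction, 67 no longer did and 0 turned direction. Requiring 10 counts in every library left 8 Hox genes (it also drops genes that fell to 0, such as Hoxa10), of which 0 and 0 were called higher and lower in Sox1posGP, 2 and 3 in NSC and 0 and 3 in NR against Baseline, with 0 higher and 6 lower in NR against NSC without a fold threshold. A fit of only the 2 groups called 1 gene lower in Sox1posGP. Without a fold threshold 5 of the 28 tested were lower in Sox1posGP, against 22.7% of all genes tested. In NR 10 were lower than in Baseline, a comparison for which the share of all genes was not computed, so no excess is read from it. In NR against NSC 2 were higher and 17 lower, against 30% and 26.6% of all genes. At more than 2-fold 2 were higher and 11 lower there, and the share of all genes at this threshold was likewise not computed. Thinning left 8 higher in NSC, 6 higher in NR and 0 higher in NR against NSC without a fold threshold, and no filter gave 4 there. The alternatives of NR against NSC without a fold threshold were chosen after seeing the data.

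With each replicate left out, 6 to 8 genes were called higher and 2 to 4 lower in Sox1posGP, 14 to 16 and 6 in NSC, 10 to 11 and 6 in NR, and 0 to 2 higher and 0 lower in NR against NSC. The calls of NR against NSC were Hoxc13 without NSC replicate 2, Hoxa11 and Hoxa13 without NSC replicate 3, and Hoxa11 without NR replicate 2. Without a fold threshold 2 to 5 were higher and 16 to 19 lower. The replicate block gave 8 and 3, 13 and 6, 9 and 6, and 0 and 0 calls in the 4 comparisons, and 3 higher and 19 lower in NR against NSC without a fold threshold. Same-numbered libraries of the other 3 comparisons had mean correlations of 0.0172, -0.0386 and 0.0285. The cause of the correlations between NR and NSC libraries was not tested.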
